A study of Mus musculus with 12 samples.

Results

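The B cell transcription factor network is described here through 10 genes, Tcf3, Ebf1, Pax5, Foxo1, Ikzf1, Ikzf3, Spib, Pou2af1, Bach2 and Irf4. They are the entries of the count table whose Entrez identifier carries one of these mouse symbols in the RefSeq annotation. All 10 were found, among 26305 identified genes in all, and all 10 lay within the 11997 genes that passed the filter on low counts. Messenger RNA was profiled in 12 libraries of EMRK1184luc, in 4 groups of 3 biological replicates: 5 µM WM-1119 for 6 days, DMSO for 6 days, 5 µM WM-1119 for 3 days and DMSO for 3 days. WM-1119 inhibits the histone acetyltransferases KAT6A and KAT6B, and DMSO is its vehicle. EMRK1184luc is a single B cell lymphoma line from a female Eµ-Myc mouse, so every library, with either treatment, carries the Eµ-Myc transgene, which drives Myc from an immunoglobulin enhancer, and the lentiviral luciferase construct. The sources used here do not say whether replicates shared a culture day, so p-values measure the spread between the samples as prepared.

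B cell identity is set by a small circuit of transcription factors that activate each other. E2A proteins, encoded by Tcf3, and EBF1 open the B-lineage programme, PAX5 commits cells to it and represses genes of other lineages, and FOXO1 acts with them on the recombination and interleukin 7 receptor genes. IKAROS and AIOLOS (Ikzf1 and Ikzf3) help large pre-B cells to leave the cycle, and IRF4 and IRF8 act at the same step. SPI-B is an ETS factor related to PU.1, and OCA-B (Pou2af1) is a coactivator that binds octamer factors. BACH2 holds B cells short of the plasma cell stage by repressing Prdm1, and IRF4 at high levels promotes that stage.

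Library totals were 14736267 to 17563985 counts with WM-1119 and 22831687 to 41749357 with DMSO at 6 days, and 18327651 to 28228807 with WM-1119 and 17928095 to 21712496 with DMSO at 3 days. The labelled cell type carried its markers. The summed level of 10 B cell markers, in CPM (counts scaled to the library total and its TMM factor), was 5986 to 6238 with WM-1119 and 5692 to 5702 with DMSO at 6 days, and 6011 to 6257 with WM-1119 and 5639 to 5786 with DMSO at 3 days. Of these markers Ms4a1, which encodes CD20, was at or near 0 in all groups. Cd24a gave the largest part of the sum, averaging 2657 CPM with WM-1119 and 2401 CPM with DMSO at 6 days. Cd22 and Cd72 were lower with WM-1119 at that time, at 174 against 256 CPM and 247 against 281 CPM. The sum of 9 T cell markers stayed at or below 1.34 CPM in every library, with Cd3e, Cd3d, Cd4 and Cd8a at 0 counts. The 8 myeloid markers summed to 122 to 128 CPM with WM-1119 and 113 to 116 CPM with DMSO at 6 days, and to 105 to 110.4 CPM and 112 to 119.9 CPM at 3 days. Itgam averaged 121 CPM with WM-1119 and 113 CPM with DMSO at 6 days (log2 fold change 0.10; adjusted p = 0.100) and fell at 3 days, to 103 CPM with WM-1119 against 114 CPM with DMSO (-0.14; adjusted p = 0.0280). Csf1r, the other tested myeloid marker, rose at both times, with 4.14 CPM with WM-1119 and 0.835 CPM with DMSO at 6 days and 4.66 and 1.04 CPM at 3 days. Cebpa, S100a8 and S100a9 were at 0 in every library. The 5 plasma cell markers, mostly Sdc1 and Xbp1, summed to 139 to 148 CPM with WM-1119 and 158 to 175 CPM with DMSO at 6 days, while the highest group means of Prdm1 and Jchain were 0.439 and 0.130 CPM. The 11 fibroblast markers, of which Lum was at 0 with WM-1119 at 6 days, summed to 1.497 to 43.1 CPM with WM-1119 and 1.54 to 18.9 CPM with DMSO at 6 days, and to 1.89 to 6.14 CPM and 1.99 to 3.30 CPM at 3 days. The 5 libraries above 1 CPM of Col1a1 were WM-1119 replicates 1 and 2 and DMSO replicates 1 and 2 of 6 days and WM-1119 replicate 2 of 3 days. In bulk RNA, fewer cells of a type and less RNA per cell cannot be told apart.

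WM-1119 lowered the messenger RNA of Bach2, Irf4, Pax5 and Ebf1 at both times and raised that of Spib at both times. Bach2 changed most, 2.10-fold lower at 6 days and 1.66-fold lower at 3 days. Foxo1 rose, and Ikzf1 and Pou2af1 fell, at 6 days by less than 1.2-fold, and Tcf3 and Ikzf3 missed the threshold at each time. At 6 days 2 of the 10 genes were called higher and 6 lower, against 15.7% and 15.1% of all 11997 genes (edgeR quasi-likelihood test, Benjamini-Hochberg adjusted p below 0.05). At 3 days 1 was called higher and 4 lower, against 11.8% and 12.7% of all genes. Averaged over both times 3 were called higher and 6 lower, where 20.6% and 21.4% of all genes were called. The median log2 fold change of the 10 genes was -0.13 at 6 days and -0.04 at 3 days, beside medians of -0.004 and 0.002 over all genes. The 3 WM-1119 libraries lay wholly above the 3 DMSO libraries for 3 genes and wholly below them for 6 genes at 6 days, where 21.4% and 19.9% of all genes did so. At 3 days they lay wholly above for 2 genes and below for 4, against 19.5% and 20.4% of all genes. The 10 genes were chosen with earlier results of these data known, so these shares are a background and no test. Each of the 10 had at least 1369 counts in every library, while the shares also take in genes with fewer.

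Levels of different genes were compared per length, as CPM per kb of the length given in the count table. With WM-1119 at 6 days Pou2af1 was the most abundant, at 423 ± 7.64 CPM per kb (SD, n = 3), followed by Tcf3 at 219 ± 8.39, Ikzf1 at 103 ± 3.22 and Pax5 at 74.9 ± 2.83 CPM per kb. Spib (53.2 ± 1.01), Ebf1 (51.5 ± 2.02), Irf4 (45.4 ± 1.48), Ikzf3 (35.6 ± 1.45), Foxo1 (27.5 ± 2.09) and Bach2 (18.1 ± 0.882 CPM per kb) followed. The libraries of Spib and Ebf1 overlapped, while each other neighbouring pair in that order was separate.

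In DMSO at 6 days the order was Pou2af1 (459 ± 20.4 CPM per kb), Tcf3 (201 ± 9.84), Ikzf1 (114 ± 3.08), Pax5 (112 ± 2.03), Irf4 (74.1 ± 4.54), Ebf1 (62.7 ± 1.09), Spib (39.1 ± 1.124), Bach2 (37.9 ± 0.594), Ikzf3 (37.7 ± 1.17) and Foxo1 (23.2 ± 0.730 CPM per kb). There Ikzf1 overlapped Pax5, and Bach2 overlapped both Spib and Ikzf3. Spib thus stood the fifth with WM-1119 and the seventh with DMSO, and Bach2 stood last with WM-1119 and the eighth with DMSO.

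At 3 days Spib was again the fifth with WM-1119, at 56.6 ± 3.31 CPM per kb, where it overlapped Irf4 (53.6 ± 2.11 CPM per kb), and the seventh with DMSO, at 44.7 ± 2.20 CPM per kb. Bach2 was last with WM-1119, at 19.4 ± 0.730 CPM per kb, and the ninth with DMSO, at 32.2 ± 0.788 CPM per kb. The counted length of Pax5 is 1208 bases and that of Bach2 8493 bases, so the order of genes depends on which transcript parts the authors' annotation counted.

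**Figure D1:**
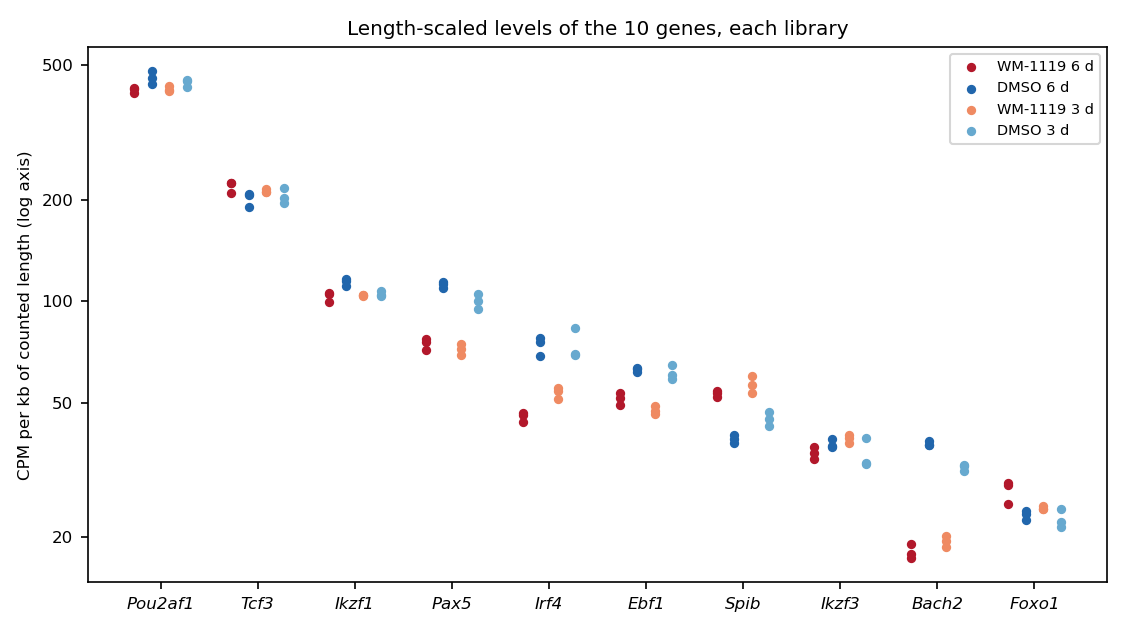
Level of each gene in CPM per kb of counted length (log axis), 1 point per library, with WM-1119 and DMSO side by side for 6 and 3 days and genes ordered by their mean in DMSO at 3 days. Pou2af1 lies highest in all 4 groups, and the WM-1119 points of Bach2 lie below those of Foxo1, while its DMSO points lie above.

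Tcf3 encodes the E2A proteins E12 and E47, basic helix-loop-helix factors that start B cell specification (chromosome 10, 80409541 to 80433976, mm10). It had 741, 792 and 794 CPM with WM-1119 against 674, 735 and 734 CPM with DMSO at 6 days, and 761, 749 and 744 CPM with WM-1119 against 692, 765 and 715 CPM with DMSO at 3 days. The groups were separate at 6 days and overlapped at 3 days. The log2 fold change was 0.12 ± 0.05 (SE) at 6 days (adjusted p = 0.0569) and 0.05 ± 0.05 at 3 days (adjusted p = 0.446). With a replicate block among the 6-day libraries, added with the data in view, the 6-day difference passed the test (adjusted p = 0.0133). It also passed without DMSO replicate 3 of 6 days (adjusted p = 0.0412) and with upper-quartile scaling (0.0289). Counts per gene do not separate E12 from E47.

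Ebf1 encodes early B cell factor 1, which opens chromatin at B-lineage genes (chromosome 11, 44618100 to 45008096). Its level was 116, 111 and 120.1 CPM with WM-1119 against 143, 138 and 142 CPM with DMSO at 6 days. At 3 days it was 104, 109.7 and 106 CPM with WM-1119 against 132, 135 and 145 CPM with DMSO. Every WM-1119 library lay below every DMSO library at each time. Ebf1 fell 1.22-fold at 6 days (log2 fold change -0.29 ± 0.05; adjusted p = 6.94e-05) and 1.29-fold at 3 days (-0.37 ± 0.05; adjusted p = 4.78e-06).

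Pax5 encodes the paired-box factor that commits cells to the B lineage (chromosome 4, 44524748 to 44710694). It had 91.6, 86.6 and 93.1 CPM with WM-1119 against 132, 137 and 136 CPM with DMSO at 6 days. At 3 days the values were 83.8, 87.1 and 90.1 CPM with WM-1119 and 115, 127 and 121 CPM with DMSO. The 6 WM-1119 libraries all lay below the 6 DMSO libraries, with no overlap at either time. The log2 fold changes were -0.58 ± 0.05 at 6 days (1.49-fold lower; adjusted p = 5.93e-09) and -0.47 ± 0.05 at 3 days (1.39-fold lower; adjusted p = 2.36e-07). The annotation places antisense genes with exons over Pax5. No source used here gives the strand setting of the authors' counting, and reads from the antisense strand cannot be told apart without it.

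Foxo1 encodes a forkhead factor that drives Rag and Il7r transcription (chromosome 3, 52268337 to 52350109). With WM-1119 it had 161, 139 and 158 CPM at 6 days, against 130.2, 125 and 132 CPM with DMSO. At 3 days it had 137, 135 and 135 CPM with WM-1119 and 119, 123 and 134 CPM with DMSO. The lowest WM-1119 library was above the highest DMSO library at each time, at 3 days by less than 1 CPM. Foxo1 rose 1.18-fold at 6 days (log2 fold change 0.24 ± 0.05; adjusted p = 0.00163), while its log2 fold change of 0.11 ± 0.05 at 3 days did not pass the test (adjusted p = 0.150) except without DMSO replicate 3 of 3 days (0.16; adjusted p = 0.0462). The gene has an annotated antisense partner with overlapping exons, so the limit given for Pax5 holds here too.

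Ikzf1 encodes IKAROS, a zinc finger factor of lymphoid cells (chromosome 11, 11684962 to 11772930). At 6 days it had 545, 515 and 542 CPM with WM-1119 against 602, 571 and 593 CPM with DMSO, and at 3 days 538, 535 and 539 CPM with WM-1119 against 536, 538 and 552 CPM with DMSO. The groups were separate at 6 days and overlapped at 3 days. Ikzf1 fell by 0.14 ± 0.04 on the log2 scale at 6 days (1.10-fold lower; adjusted p = 0.00988). The 3-day value was -0.01 ± 0.04 (adjusted p = 0.852). Gene-level counts cannot tell full-length IKAROS messages from those of its shorter dominant-negative isoforms.

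Ikzf3 encodes AIOLOS, the paralog of IKAROS that rises as B cells mature (chromosome 11, 98464610 to 98546031). It had 146, 139.8 and 152 CPM with WM-1119 against 152, 160.2 and 152 CPM with DMSO at 6 days. At 3 days it had 161, 155 and 165 CPM with WM-1119 against 135, 136 and 161 CPM with DMSO. The groups overlapped at both times, at 3 days through DMSO replicate 3 alone. The log2 fold changes were -0.09 ± 0.06 at 6 days (adjusted p = 0.281) and 0.16 ± 0.06 at 3 days (adjusted p = 0.0526). Without DMSO replicate 3 of 3 days the 3-day value was 0.24 and passed the test (adjusted p = 0.00140), and it also passed with RLE (0.0469) or upper-quartile (0.0230) scaling, with no filter on low counts (0.0200) and without WM-1119 replicate 2 of 6 days (0.0492).

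Spib encodes an ETS factor of B cells and plasmacytoid dendritic cells and had the largest rise of the 10 (chromosome 7, 44525995 to 44532087). Spib had 145, 151 and 149 CPM with WM-1119 against 112, 109 and 106 CPM with DMSO at 6 days. At 3 days it had 167, 157 and 149 CPM with WM-1119 against 124, 119 and 131 CPM with DMSO. All WM-1119 libraries lay above all DMSO libraries at both times. Spib rose 1.36-fold at 6 days (log2 fold change 0.44 ± 0.05; adjusted p = 4.11e-07) and 1.27-fold at 3 days (0.34 ± 0.05; adjusted p = 2.20e-05).

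Pou2af1 encodes OCA-B, a B cell coactivator of the octamer-binding factors OCT1 and OCT2 (chromosome 9, 51213690 to 51240079). At 6 days it had 1091, 1063 and 1100.4 CPM with WM-1119 against 1230.4, 1125 and 1176 CPM with DMSO, and at 3 days 1086, 1076 and 1110.1 CPM with WM-1119 against 1158, 1102 and 1150.0 CPM with DMSO. The groups were separate at 6 days and overlapped at 3 days. Pou2af1 fell by 0.12 ± 0.04 on the log2 scale at 6 days (1.09-fold lower; adjusted p = 0.0333), and the value was -0.06 ± 0.04 at 3 days (adjusted p = 0.326). The 6-day call was lost without WM-1119 replicate 2 (adjusted p = 0.0830) or 3 (0.0617) or DMSO replicate 1 (0.169) or 3 (0.0503) of that time, with upper-quartile scaling (0.0555) and with those 2 groups fitted alone (0.0671).

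Bach2 encodes a basic leucine zipper repressor that keeps B cells from becoming plasma cells (chromosome 4, 32238413 to 32586109). It had 162, 147 and 152 CPM with WM-1119 against 328, 319 and 319 CPM with DMSO at 6 days. At 3 days it had 158, 166 and 171 CPM with WM-1119 against 266, 276 and 279 CPM with DMSO. The highest WM-1119 library lay far below the lowest DMSO library at both times. The log2 fold changes were -1.07 ± 0.05 at 6 days (adjusted p = 1.67e-13) and -0.73 ± 0.05 at 3 days (adjusted p = 9.62e-11), and all 12 fits that left out 1 library called both. An antisense gene, Bach2os, has exons over Bach2 and was listed with 1 to 19 counts in a library, against 2232 to 13437 for Bach2. The limit on antisense reads given for Pax5 applies to Bach2 as well.

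Irf4 encodes an interferon regulatory factor that lymphocytes induce on receptor signalling (chromosome 13, 30749233 to 30766981). It had 218, 205 and 215 CPM with WM-1119 against 355, 323 and 364 CPM with DMSO at 6 days. At 3 days it had 259, 240.0 and 254 CPM with WM-1119 against 327, 325 and 389 CPM with DMSO. The groups did not overlap at either time, and DMSO replicate 3 of 3 days stood above the other replicates of its group. Irf4 fell 1.63-fold at 6 days (log2 fold change -0.71 ± 0.06; adjusted p = 8.87e-08) and 1.38-fold at 3 days (-0.47 ± 0.06; adjusted p = 2.24e-05).

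With the 5 libraries of higher Col1a1 left out (a setting picked with the data in view), 6 days kept 1 WM-1119 and 1 DMSO library, which were assumed to vary like the other groups. There 4 of the 10 genes were called at 6 days, 1 higher and 3 lower. The calls of Ebf1 (log2 fold change -0.24; adjusted p = 0.0835), Foxo1 (0.25; 0.0749), Ikzf1 (-0.13; 0.301) and Pou2af1 (-0.10; 0.467) were lost. At 3 days the calls stood at 1 higher and 4 lower with those libraries left out, as with all.

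**Figure D2:**
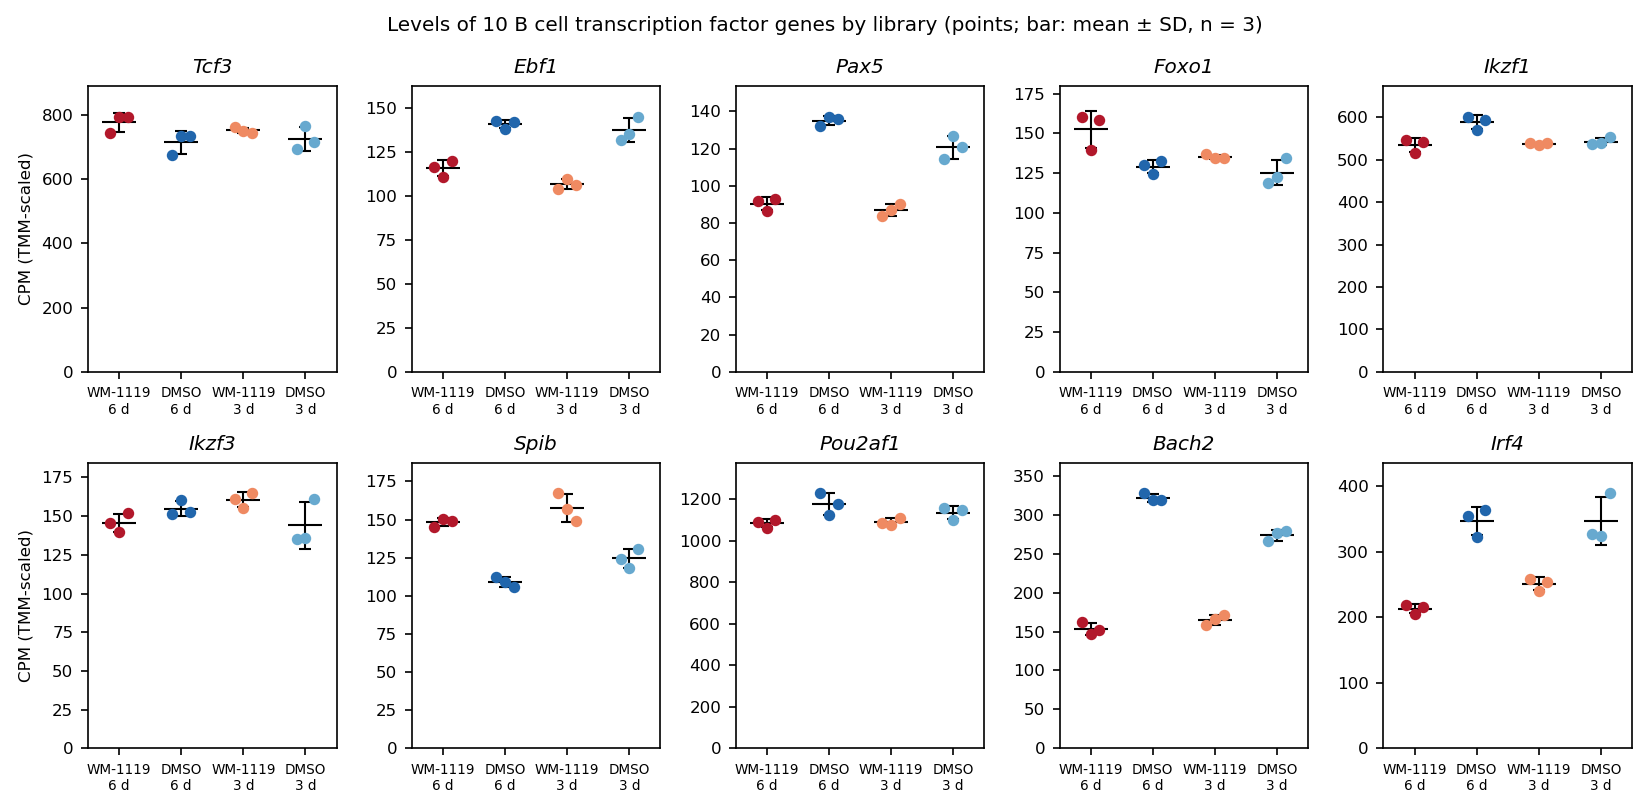
CPM of each gene in each library (points), with the mean and SD of 3 libraries per group (bars), for WM-1119 and DMSO at 6 and 3 days; each vertical axis starts at 0. Bach2, Irf4, Pax5 and Ebf1 lie lower and Spib higher with WM-1119 than with DMSO at both times, with no overlap of libraries.

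**Figure D3:**
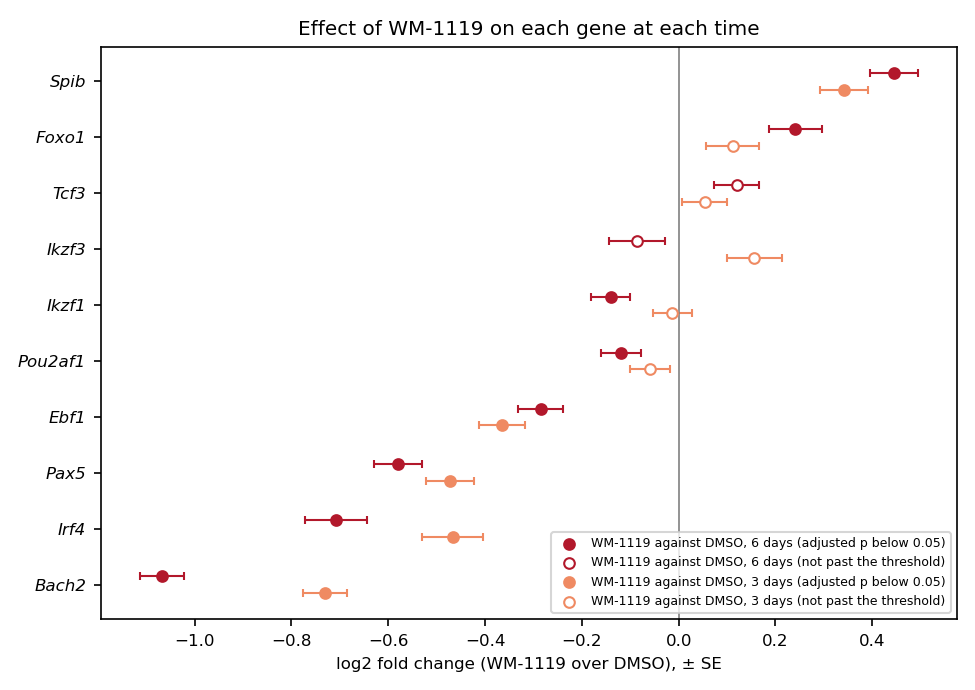
Log2 fold change of WM-1119 over DMSO with its standard error for each gene, at 6 days (upper marker) and 3 days (lower marker); filled markers passed an adjusted p of 0.05. Bach2 lies lowest at both times (-1.07 and -0.73) and Spib highest (0.44 and 0.34).

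The 2 genes with the largest opposite effects are shown with the 250 bases that precede a RefSeq transcription start, so that their sequences can be set beside the values (GRCm38.p6, printed 5′ to 3′ on the strand of the gene). The window of Spib is chr7:44532072-44532321 on the minus strand and that of Bach2 chr4:32417185-32417434 on the plus strand. The Bach2 window ends 179 kb inside the gene's annotated span, so it belongs to an internal start and not to the first one. Capitals mark a match to the composite ETS and IRF motif, the element that PU.1 or SPI-B and IRF4 or IRF8 bind together.
Spib: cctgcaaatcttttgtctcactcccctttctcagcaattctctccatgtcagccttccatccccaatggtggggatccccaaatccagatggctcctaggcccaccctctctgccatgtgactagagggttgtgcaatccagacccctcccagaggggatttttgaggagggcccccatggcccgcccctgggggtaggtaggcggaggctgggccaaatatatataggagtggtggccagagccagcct
Bach2: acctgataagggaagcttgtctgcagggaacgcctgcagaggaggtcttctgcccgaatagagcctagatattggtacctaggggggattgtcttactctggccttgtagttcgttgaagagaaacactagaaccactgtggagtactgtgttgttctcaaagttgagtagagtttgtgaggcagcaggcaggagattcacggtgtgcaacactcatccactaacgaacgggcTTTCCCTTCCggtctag
The motifs searched on both strands were the ETS and IRF composite element, the EBF1 palindrome, CAGCTG and CAGGTG (E-boxes), GTAAACA (FOXO), TGGGAA (IKAROS), ATGCAAAT (octamer), TGAGTCA (AP-1 sites, which BACH2 can bind) and GGAAGT (ETS). A composite and an ETS match can share bases.

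Of the 10 genes 9 had a promoter entry, with 11 windows in all, and Ikzf3 had none. Bach2 held the only composite match among them, on the minus strand, and 2.30% of all 32851 promoter windows held one. An EBF1 match lay in the Foxo1 window (0.779% of all windows), an IKAROS match in a window of Ebf1 (21.6% of all windows), and ETS matches in windows of Tcf3 and Ebf1 (19.7% of all windows). The other motifs had no match in these windows, and the Spib window held none of those searched.

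Differences between the times were small for most of the 10. The treatment effect at 6 days minus that at 3 days passed the test for 1 gene, Bach2, where 0.725% of all genes did (log2 difference -0.34 ± 0.06; adjusted p = 0.00999). This call was lost without WM-1119 replicate 3 of 3 days (-0.31; adjusted p = 0.0515). Without DMSO replicate 3 of 3 days 3 genes were called, with Irf4 (-0.33; adjusted p = 0.0409) and Ikzf3 (-0.33; 0.0231) beside Bach2. With all libraries Irf4 had -0.24 ± 0.09 (adjusted p = 0.403) and Ikzf3 -0.24 ± 0.08 (adjusted p = 0.325).

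Bach2 also differed between the vehicle cultures, averaging 322 ± 5.04 CPM in DMSO at 6 days and 274 ± 6.69 CPM in DMSO at 3 days (log2 fold change 0.24 ± 0.04; adjusted p = 0.0101). It was the only one of the 10 called there, where 0.809% of all genes were. With WM-1119 it averaged 154 ± 7.49 CPM at 6 days and 165 ± 6.20 CPM at 3 days (-0.10 ± 0.05; adjusted p = 0.193). These values share libraries with the treatment comparisons above. The vehicle call was lost without DMSO replicate 1 of 3 days (0.22; adjusted p = 0.0758). Spib was lower in DMSO at 6 days than at 3 days by 0.19 ± 0.05 on the log2 scale (adjusted p = 0.0708), which passed with DESeq2 (0.0421), with upper-quartile scaling (0.0425) and with no filter on low counts (0.0403).

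With WM-1119, Irf4 was lower at 6 days, at 213 ± 6.94 CPM, than at 3 days, at 251 ± 9.88 CPM (log2 fold change -0.24 ± 0.06; adjusted p = 0.0341), and was the only one of the 10 called, where 5.62% of all genes were. That call was lost without any 1 of the 6 WM-1119 libraries (adjusted p from 0.0504 to 0.117) and with limma voom (0.0517). Foxo1 had 153 ± 11.6 CPM at 6 days and 135 ± 1.30 CPM at 3 days with WM-1119 (0.17 ± 0.05; adjusted p = 0.0679). It passed without WM-1119 replicate 2 (0.0213) or DMSO replicate 3 (0.0496) of 6 days.

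Other factors of the B lineage moved in both directions. Paired values for these companion genes are log2 fold changes, with their adjusted p, at 6 and at 3 days. Of 45 listed factors and inhibitors 39 were tested, with 11 called up and 12 down at 6 days (median log2 fold change -0.03), and 9 up and 11 down at 3 days (median -0.07). Of all genes 15.7% were called higher and 15.1% lower at 6 days, and 11.8% and 12.7% at 3 days. Gfi1, a zinc finger repressor, averaged 4.78 ± 0.277 CPM with WM-1119 and 16.1 ± 1.63 CPM with DMSO at 6 days (-1.75; adjusted p = 8.17e-11), and fell by 1.08 at 3 days. Lef1, an HMG-box factor of B cell progenitors, averaged 73.9 ± 0.353 CPM with WM-1119 and 136 ± 1.31 CPM with DMSO at 6 days (-0.88; adjusted p = 1.35e-12) and fell by 0.86 at 3 days. Ets1, an ETS factor, fell at 6 and 3 days (-0.83 and -0.54; adjusted p = 3.31e-12 and 4.04e-09). Sox4, another HMG-box factor of progenitors, fell likewise (-0.47 and -0.46).

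Close relatives of the 10 genes did not all move with them. Tcf4, a second E protein gene, averaged 156 ± 10.8 CPM with WM-1119 and 206 ± 10.0 CPM with DMSO at 6 days and fell at both times (-0.40 and -0.25; adjusted p = 3.67e-05 and 0.00523), while Tcf12, the remaining E protein gene, had -0.08 and -0.09 (adjusted p = 0.228 and 0.172). The E protein inhibitors Id2 (0.25 and 0.04; adjusted p = 0.120 and 0.834) and Id3 (0.03 and -0.08; adjusted p = 0.774 and 0.410) did not pass the test. Spi1, which encodes PU.1, averaged 107 ± 3.09 CPM with WM-1119 and 93.7 ± 6.42 CPM with DMSO at 6 days and rose at both times, as Spib did (0.19 and 0.30; adjusted p = 0.0117 and 0.000415). Pou2f2, which encodes the OCA-B partner OCT2, averaged 49.3 ± 4.07 CPM with WM-1119 and 36.1 ± 1.59 CPM with DMSO at 6 days and rose at both times (0.45 and 0.47; adjusted p = 0.000152 and 0.000147).

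Irf8, the relative of Irf4, averaged 266 ± 4.86 CPM with WM-1119 and 266 ± 6.89 CPM with DMSO at 6 days (log2 fold changes 0.002 and -0.03 at 6 and 3 days; adjusted p = 0.975 and 0.701). Ikzf5, a distant IKAROS relative, fell at 6 days (-0.26; adjusted p = 0.00303) and had -0.07 at 3 days (0.488), and Ikzf2 was at or near 0 in all groups. Bcl6, the germinal centre repressor, was low and fell, at 2.09 ± 0.162 CPM with WM-1119 and 3.75 ± 0.200 CPM with DMSO at 6 days (-0.85 and -1.18; adjusted p = 0.00546 and 0.000453). Prdm1, which encodes the plasma cell factor BLIMP1, averaged 0.310 CPM with WM-1119 and 0.439 CPM with DMSO at 6 days and was too low to be tested. Xbp1, a factor of secretory cells, rose at 6 days (0.15; adjusted p = 0.0389) and had a log2 fold change of 0.02 at 3 days (adjusted p = 0.869).

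**Figure D4:**
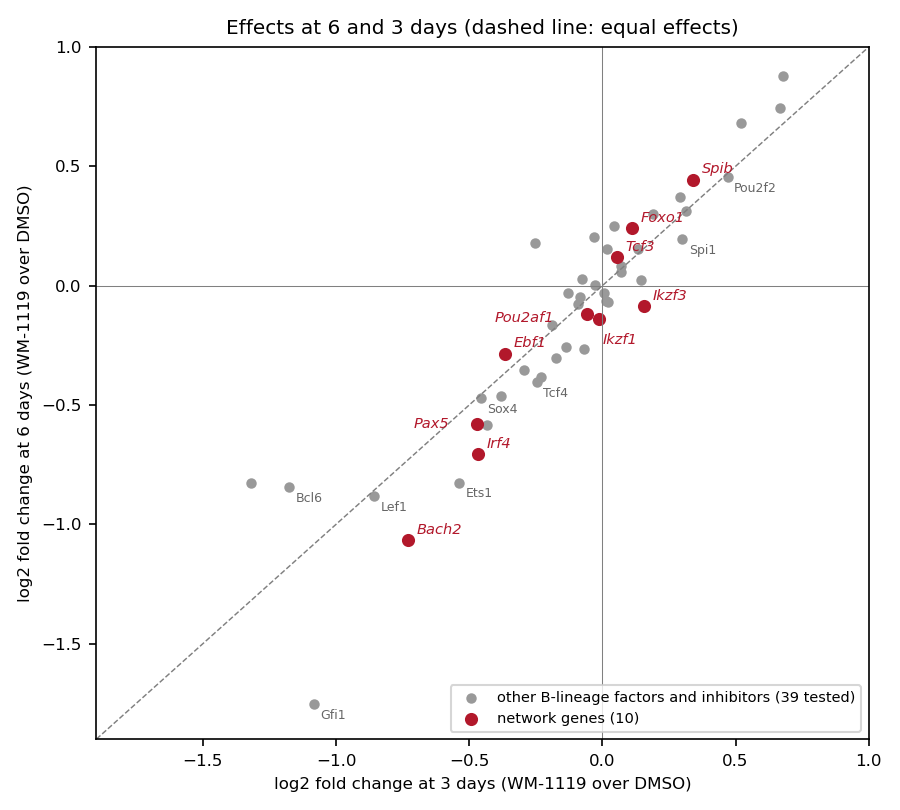
Log2 fold change at 3 days (horizontal) and 6 days (vertical) for the 10 network genes (red) and 39 other tested B-lineage factors and inhibitors (grey); the dashed line marks equal effects. Bach2 and Irf4 lie below the line. Spib lies with Pou2f2 and Spi1 in the upper right, where some other grey points lie further out.

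Known targets of these factors are given by list, and the shares of all genes called, 15.7% higher and 15.1% lower at 6 days and 11.8% and 12.7% at 3 days, are the background for each count. The lists share genes, so their counts are not separate. Rag1, for example, is among the EBF1 or E2A, the FOXO1 and the IKAROS family targets. Outside the PAX5 and BACH2 lists no direction of regulation was set. Of 16 genes that PAX5 is known to activate, 5 of them members of the network, 15 were tested. Of these 3 rose and 6 fell at 6 days, and 1 rose and 5 fell at 3 days, with medians of -0.09 and -0.06. The network members Bach2, Irf4 and Pou2af1 were among the falls at 6 days, and Spib was among the rises. At 3 days Spib was the only rise, and Bach2 and Irf4 were among the falls. The medians were the values of Ikzf3 at 6 days and Pou2af1 at 3 days, also members. Cd79a, which encodes a signalling chain of the B cell receptor, had log2 fold changes of 0.01 and 0.04 at 6 and 3 days (adjusted p = 0.888 and 0.594). Cd72, which encodes a co-receptor, fell at 6 days by 0.19 (adjusted p = 0.00729), and Bst1, a surface enzyme gene, fell at 3 days by 0.19 (adjusted p = 0.0127). Cd22, an inhibitory receptor, fell at both times (-0.56 and -0.31; adjusted p = 1.98e-08 and 7.39e-05).

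Of 7 genes that PAX5 represses 5 were tested, with 3 up and 2 down at 6 days, and 2 up and 2 down at 3 days. Csf1r, the macrophage growth factor receptor gene and also 1 of the 8 myeloid markers, averaged 4.14 ± 0.480 CPM with WM-1119 and 0.835 ± 0.244 CPM with DMSO at 6 days (2.25 and 2.14; adjusted p = 3.09e-08 and 1.11e-07). Notch1 averaged 61.9 ± 2.13 CPM with WM-1119 and 41.6 ± 0.944 CPM with DMSO at 6 days and rose at both times (0.58 and 0.44). Flt3, a receptor of early progenitors, fell at both times (-1.55 and -1.07), and the costimulatory receptor gene Cd28, near 1 CPM with DMSO, fell too (-1.36 and -1.28).

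Of 13 genes known as EBF1 or E2A targets, all tested and 3 of them network members, 6 rose and 2 fell at 6 days, and 2 rose and 4 fell at 3 days. The falls at 6 days were those of the network members Pax5 and Pou2af1 alone, and Foxo1 was among the rises. At 3 days Pax5 was among the falls. Cd79b, the partner of Cd79a, averaged 407 ± 13.6 CPM with WM-1119 and 291 ± 3.65 CPM with DMSO at 6 days and rose at both times (0.48 and 0.50; adjusted p = 2.46e-07 and 2.45e-07). Rag1, which encodes a subunit of the V(D)J recombinase, averaged 457 ± 24.2 CPM with WM-1119 and 335 ± 24.8 CPM with DMSO at 6 days (0.45 and 0.38). Dntt, the terminal transferase gene, rose at 6 days by 0.30 (adjusted p = 0.000428). The kinase gene Blk fell at 3 days by 0.38 (adjusted p = 1.70e-05) and had a log2 fold change of -0.02 at 6 days (adjusted p = 0.775).

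Of 13 FOXO1 targets 12 were tested, 5 up and 5 down at 6 days, and 2 up and 5 down at 3 days. The interleukin 7 receptor gene Il7r rose (0.29 and 0.31; adjusted p = 0.000329 and 0.000257), and the stress-inducible gene Sesn1 fell (-0.27 and -0.24). Of 8 IKAROS family targets 7 were tested, 5 up and 1 down at 6 days, and 2 up and 2 down at 3 days, with the cyclin gene Ccnd3 at 0.29 and 0.13 (adjusted p = 0.000192 and 0.0674) and Ccnd2 at -0.32 and -0.20. Of 12 targets of IRF4, IRF8, PU.1 or SPI-B 8 were tested, 3 up and 3 down at 6 days, and 1 up and 4 down at 3 days. The inhibitory Fc receptor gene Fcgr2b rose at 6 days by 0.28 (adjusted p = 4.18e-05). The receptor gene P2ry10 was low and fell, at 1.81 ± 0.394 CPM with WM-1119 and 3.80 ± 0.441 CPM with DMSO at 6 days.

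Of 5 genes listed as repressed by BACH2, 3 were tested, with 3 higher at 6 days and 1 higher at 3 days. Whether BACH2 acts on them in these cells, and in which direction, was not tested. Prdm1, also in this list, was too low to be tested. The cell cycle inhibitor gene Cdkn1a averaged 7.68 ± 1.01 CPM with WM-1119 and 3.24 ± 0.143 CPM with DMSO at 6 days (1.248; adjusted p = 1.46e-06), while the 3-day value was -0.12 (adjusted p = 0.648). Cdkn2a, which encodes the inhibitors p16INK4a and p19ARF, averaged 35.0 ± 3.45 CPM with WM-1119 and 10.96 ± 0.752 CPM with DMSO at 6 days and rose at both times (1.67 and 0.98). The haem oxygenase gene Hmox1 rose at 6 days by 0.27 (adjusted p = 0.0391). Of 6 OCA-B targets 5 were tested, with 3 higher, among them the network member Spib, and 0 lower at each time. The kinase gene Btk rose by 0.22 and 0.13 and the potassium channel gene Kcnn4 by 0.34 and 0.27.

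The genes with the profiles most like those of the 5 network genes called at both times were found by the root mean square difference of log2 CPM, each gene centred on its mean, over the 12 libraries and 9483 genes of at least 5 CPM. For Bach2 these were Ctsl, which encodes the protease cathepsin L (difference 0.06), and the zinc transporter gene Slc30a4 (0.08), against a median of 0.47 over all genes. For Irf4 they were the diacylglycerol kinase gene Dgke and Ajuba, which encodes a LIM domain protein (0.06 each, median 0.33). For Pax5 they were Bcat1, a branched-chain amino acid transaminase gene, and Srebf2, which encodes a factor of sterol synthesis genes (0.05 each, median 0.29). For Ebf1 they were Gpat4 and Fam185a (0.04 each, median 0.20), and for Spib the kinase gene Prkcd and Bin1 (0.05 and 0.06, median 0.24). Among the network genes themselves Pax5 and Ebf1 were nearest to each other (0.12), and Irf4 was nearest to Pax5 (0.15) and Bach2 to Irf4 (0.20). The genes outside the network were picked as the nearest of 9483, so the medians give a scale and no test.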

How the data were processed

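Messenger RNA of 12 EMRK1184luc samples was measured in poly(A)-selected libraries. The authors' deposited table holds read counts per gene, all whole numbers with no normalization, and a gene length. Per the submitters' processing notes the counts came from featureCounts on mm10. No source used here gives the aligner, the strand setting or the treatment of reads mapping to several places. Entries without a gene identifier (874, with 0.305% to 0.362% of a library) were left out, and 25275 of 26305 Entrez identifiers carried a RefSeq symbol. Totals of 14736267 to 41749357 counts set the precision, and the 10 genes had 1369 to 50434 counts in a library.

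All 12 libraries entered 1 edgeR 4.0.16 quasi-likelihood fit with 4 group means (R 4.3.3), TMM factors and filterByExpr by group, which left 11997 genes. Two-sided p-values were adjusted by Benjamini-Hochberg over all tested genes, with a threshold of 0.05. With 3 libraries a group, exact permutation reaches p = 0.1 at the lowest. CPM divide a count by the TMM-adjusted library size. The test was checked on simulated counts for the 3-day comparison. It called 60% of the genes changed 1.25-fold, 77.6% of those changed 1.5-fold and 95.9% of those changed 2-fold. Of its 167 calls 5 were false. Changes smaller than 1.25-fold were not simulated.

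Same-numbered samples deviated together at 6 days (correlations across genes of deviations from group means, 0.144 to 0.243) but not at 3 days (-0.0233 to 0.0394), so the block of replicate number is given beside a 6-day result where it changes the call. Alternatives were scaling by RLE or upper quartile, testing unfiltered genes or those with 1 CPM in at least 3 libraries, limma 3.58.1 voom, DESeq2 1.42.0, only the groups compared, the replicate block, and leaving out each library. Leaving out the 5 libraries above 1 CPM of Col1a1 and a block within each time were added after seeing the data. At 6 days those libraries were replicates 1 and 2 of both groups, so replicate number went partly with Col1a1.

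The 10 genes and the companion lists were chosen with earlier results of these data known. Beside the 10 genes the text names, of each list, up to 4 genes called at either time with the smallest p for the average effect and 15 fixed relatives, and the 2 genes nearest in profile to each network gene called at both times; 1 gene that this rule names is not reported here. Bcl11a and Bhlha15 were added outside this rule. Promoter sequences are from RefSeq (GRCm38.p6), and strands and overlapping genes from GENCODE M21. Motifs were counted in the 250 bases before each start.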

Additional observations from a re-analysis of the deposited data

Results flagged for a closer look

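Bach2 was the 1 network gene whose treatment effect passed a test of the difference between the times. Its log2 fold change was -1.07 at 6 days and -0.73 at 3 days, a difference of -0.34 ± 0.06 (SE; edgeR quasi-likelihood interaction, adjusted p = 0.00999). The difference combines a level with WM-1119 of 154 CPM at 6 days and 165 CPM at 3 days with a level in DMSO of 322 CPM at 6 days and 274 CPM at 3 days. Col1a1 was above 1 CPM in 4 of the 6 libraries of 6 days and in 1 of the 6 of 3 days. Without those 5 libraries the difference was -0.34 (adjusted p = 0.548), with 1 library in each group at 6 days.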

How the results depend on the processing

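The directions of Bach2, Irf4, Pax5, Ebf1 and Spib at both times were the same under every alternative run, and their calls stood except that of Ebf1 at 6 days without the 5 libraries of higher Col1a1. Of the recomputed log2 fold changes of the 10 genes over 6 contrasts 42 lost and 21 gained a call, and 0 called values changed sign. No fit of only the groups compared could be made for the average effect or the difference between times, and a block within each time was fitted for the 6-day and 3-day comparisons alone.

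Without the 5 libraries of higher Col1a1 the count of genes called at 6 days was 1516, against 3693 with all, the count of network genes called at 6 days was 4, against 8, and the counts for the difference between times, for DMSO at 6 against 3 days and for WM-1119 at 6 against 3 days were each 0, against 1. In DMSO at 6 against 3 days 2 network genes were called with DESeq2, with upper-quartile scaling and without the low-count filter. In WM-1119 at 6 against 3 days 0 were called with limma voom, and 2 with the replicate block and with only the groups compared.

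Leaving out 1 library at a time gave 2167 to 3249 called genes at 3 days and 2924 to 3788 at 6 days. It gave 5 to 7 network genes at 3 days, 7 to 8 at 6 days and 6 to 9 for the average effect, 0 to 3 for the difference between times, 0 to 1 in DMSO at 6 against 3 days and 0 to 2 in WM-1119 at 6 against 3 days. For the average effect the call of Tcf3 was lost in 8 of 12 such fits, that of Ikzf1 in 5 and that of Pou2af1 in 1. The replicate block over both times called 3157 genes at 3 days and 3904 at 6 days. At 3 days, where the numbers did not pair the samples, the block within that time called 3150 genes, and within 6 days it called 4352. Besides Tcf3 at 6 days the block changed no call at 6 days. Elsewhere the block over both times added Ikzf3 at 3 days (0.16; adjusted p = 0.0265) and Foxo1 in WM-1119 at 6 against 3 days (0.17; adjusted p = 0.0402).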
